A study of Mus musculus with 3 samples.

Results

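The 10 genes described here encode regulators of transcription and RNA in germ cells: Stra8, Meioc, Rbm46, Dazl, Sohlh1, Sohlh2, Taf7l, Brdt, Cpeb1 and Tex15. They were chosen by name, with earlier results of these data known, so counts over them are descriptions. Every probe whose RefSeq accession mapped to one of them was read, which gave 13 probes for 10 of the 20274 genes named on the array. RNA came from cultures labelled as mouse embryonic stem cells and was hybridised to 1-colour Agilent arrays, 1 array for each of 3 groups. The groups were Pcgf6KO+ Pcgf6_flag, in which lentivirus had carried Flag-tagged Pcgf6 into the knockout line, Pcgf6KO, made with Cas9, and wildtype. All 3 were labelled male and grew on mitomycin-treated mouse embryonic fibroblasts with leukemia inhibitory factor. The edited allele, and whether each line is a single clone, are not given in the sources used here. Each group had a single array, so differences could not be tested and have no replicate check. A fixed rule of at least 2-fold, or 1 log2 unit, was used instead.

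Entry into meiosis in germ cells depends on retinoic acid, which induces Stra8, and on RNA-binding proteins that change which transcripts are kept and translated. The helix-loop-helix factors Sohlh1 and Sohlh2 drive the differentiation of spermatogonia and young oocytes, while Taf7l and Brdt are germline forms of a general transcription factor subunit and of a chromatin reader. In embryonic stem cells many germline genes are held silent by PRC1.6, a variant Polycomb complex defined by Pcgf6. It is brought to promoters by the DNA-binding pairs Mga with Max and E2f6 with Dp1, which recognise E-box and E2F-type sequences.

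A level is the log2 processed signal minus the 75th percentile of the same array, and it can be compared between arrays for 1 probe but not between genes. Between 60.7% and 66.0% of probes were well above background on the 3 arrays, and no spot was saturated. The array labelled Pcgf6KO+ Pcgf6_flag lay alone on slide 2 and the others lay on slide 1, so in every comparison with it slide and group cannot be told apart. Repeated spots of one probe gave an SD of 0.11 log2 units for a difference between Pcgf6KO and wildtype, or 0.18 for probes with a mean signal under 1000. The error that Feature Extraction assigns to a spot came to at least 0.20 log2 units for the difference of a member gene, and neither value covers variation between cultures. Pcgf6 had levels of 0.42 on the array labelled Pcgf6KO+ Pcgf6_flag, 0.84 in Pcgf6KO and 1.87 in wildtype. Its probe thus read 2.04-fold lower in Pcgf6KO than in wildtype, and was not higher on the array labelled Pcgf6KO+ Pcgf6_flag than in Pcgf6KO. It could not be placed against the edited stretch or the viral insert, so every direction drawn from that array rests on its label. The other 13 PRC1.6 genes listed stayed within 2-fold between Pcgf6KO and wildtype.

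Promoter windows from RefSeq, build GRCm38.p6, were matched by symbol for 9 of the 10 genes, each with 250 bases before and 50 bases after the annotated transcript start. The E-box, CACGTG on both strands, was present in 5 of these 9 windows, against 7.15% of all 32851 windows of the same length. An E2F6-type site, TCCCGC or GCGGGA, was present in 3 of 9, against 6562 of the 32851 windows. The T-box sequence AGGTGTGA or TCACACCT, of the kind bound by the second DNA-binding domain of Mga, was present in 1 of 9, against 1.28%. The nuclear receptor half-site, AGGTCA or TGACCT, was present in 2 of 9, against 16.3%. A match is a description of the sequence and not a binding site. The E-box and the E2F6-type site each contain a CpG, and each member window held more CpG than the median window. The shares were not compared with windows of like CpG content. The windows below belong to the 6 genes that passed 2-fold upward in Pcgf6KO and to Stra8, for contrast. Capitals mark E-boxes and E2F6-type sites, and in Stra8 the half-sites, while Sohlh2 holds neither of the first 2. Each is written 5′ to 3′ along its gene.
Rbm46, chr3:82876434-82876733, minus strand: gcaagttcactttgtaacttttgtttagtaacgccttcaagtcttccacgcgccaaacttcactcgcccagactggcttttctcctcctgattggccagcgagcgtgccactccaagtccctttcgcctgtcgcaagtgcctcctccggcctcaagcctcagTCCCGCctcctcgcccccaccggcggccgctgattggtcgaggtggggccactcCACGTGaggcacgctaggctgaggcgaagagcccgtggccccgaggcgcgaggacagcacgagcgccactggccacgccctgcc
Brdt, chr5:107330944-107331243, plus strand: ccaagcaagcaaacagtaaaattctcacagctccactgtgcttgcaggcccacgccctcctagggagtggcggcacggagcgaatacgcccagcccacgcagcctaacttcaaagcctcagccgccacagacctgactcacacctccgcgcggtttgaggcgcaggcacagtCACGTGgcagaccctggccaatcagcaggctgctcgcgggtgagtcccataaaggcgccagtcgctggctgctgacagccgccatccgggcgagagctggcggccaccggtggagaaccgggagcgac
Sohlh1, chr2:25847199-25847498, minus strand: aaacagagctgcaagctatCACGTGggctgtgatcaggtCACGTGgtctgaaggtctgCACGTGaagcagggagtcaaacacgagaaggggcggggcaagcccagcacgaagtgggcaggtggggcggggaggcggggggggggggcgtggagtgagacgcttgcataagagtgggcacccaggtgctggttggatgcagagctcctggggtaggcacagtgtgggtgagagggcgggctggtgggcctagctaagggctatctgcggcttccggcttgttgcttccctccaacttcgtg
Cpeb1, chr7:81454709-81455008, minus strand: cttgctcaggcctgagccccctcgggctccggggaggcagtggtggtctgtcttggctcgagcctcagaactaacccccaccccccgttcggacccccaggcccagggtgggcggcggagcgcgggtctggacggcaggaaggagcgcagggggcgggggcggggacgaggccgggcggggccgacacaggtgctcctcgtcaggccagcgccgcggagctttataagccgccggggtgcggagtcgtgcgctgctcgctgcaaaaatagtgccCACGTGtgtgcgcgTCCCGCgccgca
Meioc, chr11:102665335-102665634, plus strand: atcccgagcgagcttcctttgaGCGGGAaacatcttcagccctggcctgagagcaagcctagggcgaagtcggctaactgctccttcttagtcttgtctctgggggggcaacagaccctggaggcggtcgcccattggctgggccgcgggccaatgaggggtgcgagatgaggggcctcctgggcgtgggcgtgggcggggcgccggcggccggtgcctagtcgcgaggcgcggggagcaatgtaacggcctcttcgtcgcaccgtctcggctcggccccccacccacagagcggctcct
Sohlh2, chr3:55181794-55182093, plus strand: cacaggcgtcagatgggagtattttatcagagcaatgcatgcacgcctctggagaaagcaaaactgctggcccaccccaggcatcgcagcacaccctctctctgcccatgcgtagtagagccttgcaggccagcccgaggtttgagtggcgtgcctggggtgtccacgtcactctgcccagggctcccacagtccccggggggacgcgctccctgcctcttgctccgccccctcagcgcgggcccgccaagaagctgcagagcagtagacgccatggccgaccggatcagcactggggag
Stra8, chr6:34920698-34920997, plus strand: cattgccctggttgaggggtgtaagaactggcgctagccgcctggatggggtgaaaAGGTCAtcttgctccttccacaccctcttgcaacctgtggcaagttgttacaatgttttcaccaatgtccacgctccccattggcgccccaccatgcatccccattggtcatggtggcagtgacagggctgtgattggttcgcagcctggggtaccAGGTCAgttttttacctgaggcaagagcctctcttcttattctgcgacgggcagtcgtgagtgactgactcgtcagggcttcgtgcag

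Positions were counted from the annotated start to the first base of each match. The Rbm46 window held an E-box 34 bases before the start and an E2F6-type site 88 bases before it. In Brdt the E-box lay 78 bases and the T-box sequence 113 bases before the start. Sohlh1 held 3 E-boxes, at 231, 211 and 192 bases before the start, and the middle one shares bases with an AGGTCA half-site. In Cpeb1 both sites lay after the start, the E-box at 24 and the E2F6-type site at 38 bases. Meioc held only an E2F6-type site, 228 bases before the start, and Taf7l only an E-box, 49 bases before it. Neither of those 2 sequences was found in the windows of Sohlh2, Dazl and Stra8, and the Stra8 half-sites lay 194 and 38 bases before the start. The number of CpG dinucleotides ran from 10 in Stra8 to 33 in Cpeb1, with 28 in Meioc and in Dazl, against a median of 7 and quartiles of 3 and 20 over all windows.

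**Figure D1:**
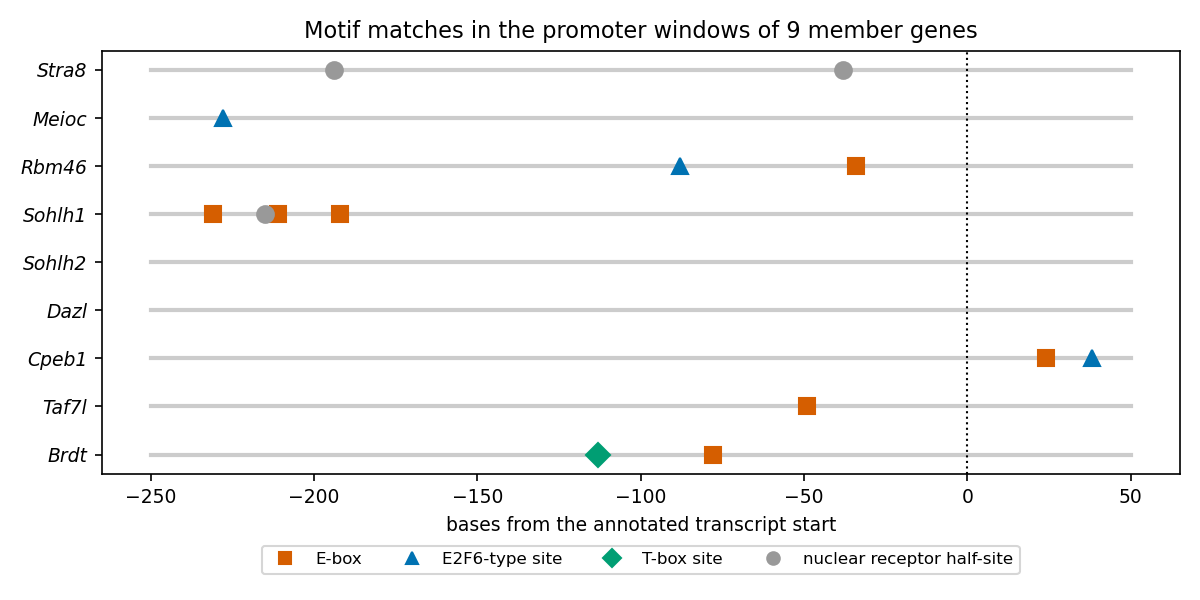
Matches to 4 sequence motifs in the promoter windows of 9 member genes, by distance in bases from the annotated transcript start, marked by the dotted line at 0. E-boxes, drawn as squares, occur in Rbm46, Sohlh1, Cpeb1, Taf7l and Brdt, and E2F6-type sites, drawn as triangles, in Meioc, Rbm46 and Cpeb1.

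Pcgf6KO was first set against wildtype, which asks whether regulators of meiotic entry were higher along with the structural genes of the germline. All 10 members were well above background on both arrays, so none had been lost to a filter on dim probes. Of the 10, 6 passed 2-fold upward in Pcgf6KO and 0 passed it downward, against 5.81% and 2.81% of the 14997 genes measured on both arrays. The 6 were Rbm46, Brdt, Sohlh2, Meioc, Cpeb1 and Sohlh1. The median difference over the members was 1.38 and their range 0.57 to 3.62, against a median of -0.02 over all genes. In such bulk RNA fewer cells of a type and less RNA per cell cannot be told apart. The direction was the same for every member under the 8 alternatives of scaling, background correction and probe choice. Several of these alternatives move all members by the same amount, so the 8 are not separate checks.

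The labelled cell type was checked against its markers, since one label field names muscle where another names embryonic stem cells. All 10 stem cell markers were well above background on every array and differed by -0.28 to 0.29 between Pcgf6KO and wildtype. Of 20 fibroblast markers, 14 were well above background on the array labelled Pcgf6KO+ Pcgf6_flag, 17 in Pcgf6KO and 19 in wildtype, and Lum was below that mark on all 3. Their summed signal, relative to the 75th percentile, was 38.3, 45.2 and 79.5 on the same arrays, and their median level -2.32, -0.58 and 0.56. The sum rests largely on Fn1, Sparc and Vim, the brightest on each array. Between the array labelled Pcgf6KO+ Pcgf6_flag and Pcgf6KO these differed only by 0.10, 0.08 and -0.03. In Pcgf6KO 9 of 17 fibroblast markers were at least 2-fold lower and 0 higher, opposite in direction to the members. Of 7 testis somatic markers, none of the 5 measured passed 2-fold, and Amh and Cyp17a1 were not well above background on any array. The part of feeder content in the member differences was not tested.

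Among the meiotic entry regulators 2 of 4 passed 2-fold. Rbm46, which encodes an RNA-binding protein needed for germ cells to enter meiosis, had a processed signal of 2149.7 in Pcgf6KO, against 159 in wildtype. Its level was 12.3-fold higher in Pcgf6KO, a difference of 3.62, which was 2.91 with normexp background correction. Only 12 of the 14997 genes had a larger difference. Meioc, whose protein works with Rbm46 and the helicase Ythdc2 to hold germ cells in meiotic prophase, had a level of 2.25 in Pcgf6KO and 0.37 in wildtype, a difference of 1.88. A dimmer second Meioc probe differed by 3.18, with levels of -1.47 in Pcgf6KO and -4.65 in wildtype. Both probes were therefore higher in Pcgf6KO, although by unequal amounts, and their mean differed by 2.53.

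Stra8, the retinoic acid-induced gatekeeper of meiosis, had the smallest difference of the members. Its level was 0.76 in Pcgf6KO and 0.19 in wildtype, 1.49-fold higher, and 11.9% of all genes had a larger difference. Stra8 was well above background in wildtype already, with a signal of 4461 against 7267 in Pcgf6KO. Dazl, an RNA-binding protein that licenses germ cells for meiosis, had levels of -1.26 in Pcgf6KO and -2.04 in wildtype. Its difference of 0.78 was also under 2-fold. Both differences exceeded the 0.20 and 0.21 log2 units of the spot error, but the spread between cultures is unknown.

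Of the 4 transcription regulators, 3 were at least 2-fold higher. Brdt, the testis member of the BET bromodomain family, which reads acetylated histones, had a level of -2.02 in Pcgf6KO and -4.95 in wildtype. This made it 7.60-fold higher, from signals of 1056 in Pcgf6KO and 127 in wildtype, and its log2 difference of 2.93 was 2.12 with normexp correction. Its second probe was 6.97-fold higher, so the pair gave nearly the same difference. Sohlh2 had a level of 1.73 in Pcgf6KO and -0.72 in wildtype, 5.46-fold higher. Its partner Sohlh1 was much nearer the threshold, with -3.07 in Pcgf6KO and -4.17 in wildtype, 2.14-fold higher. With normexp correction the log2 difference of Sohlh1 was 0.91, so the call for Sohlh1 depends on how background was removed. Taf7l, the X-linked germline paralog of the general transcription factor subunit Taf7, had levels of 1.80 in Pcgf6KO and 0.94 in wildtype and differed by 0.86.

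Cpeb1, which controls the length of poly(A) tails and the translation of stored messenger RNA in oocytes, had a level of 0.91 in Pcgf6KO and -0.74 in wildtype, 3.15-fold higher. Tex15, which acts in meiotic repair of DNA breaks and in transposon silencing, had levels of 0.40 in Pcgf6KO and -0.55 in wildtype. Its difference of 0.96 lay just inside 2-fold and became 1.09 without scaling between arrays. A second Tex15 probe was not well above background on any array and gave no measurement. Just outside the threshold on the other side was Sohlh1, so these 2 genes stand on either side of the rule by a margin smaller than the spot error.

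**Figure D2:**
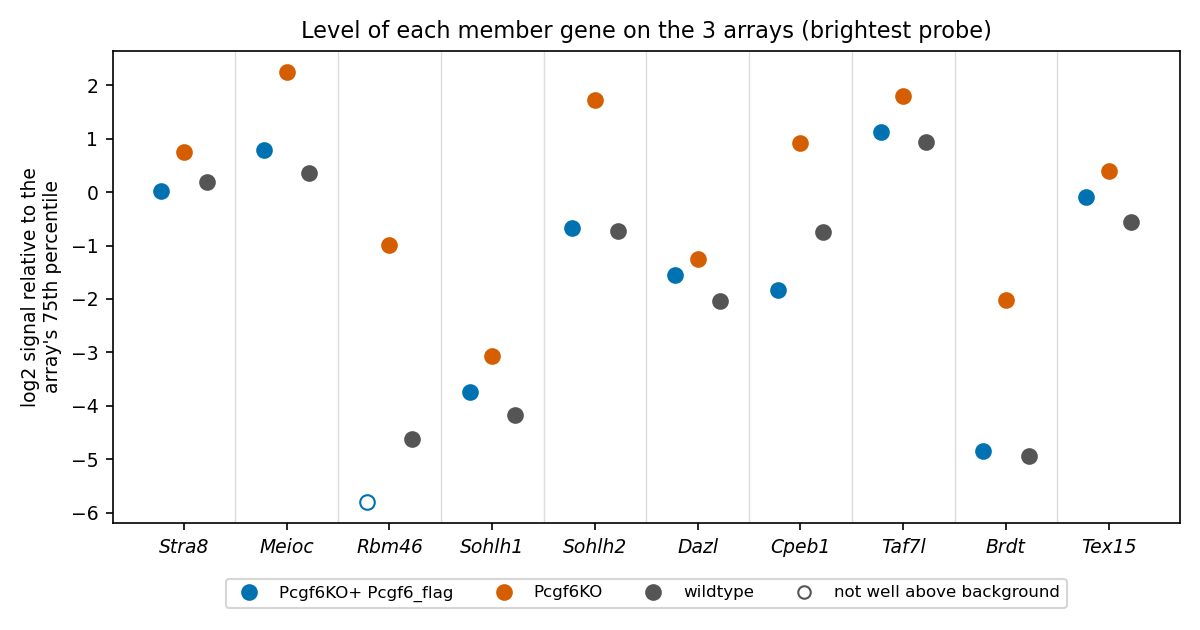
Level of each member gene, read from its brightest probe, on the array labelled Pcgf6KO+ Pcgf6_flag, the Pcgf6KO array and the wildtype array, as log2 signal relative to the array's 75th percentile. Open circles are not well above background, and levels compare between arrays within a gene only. The Pcgf6KO point is the highest of the 3 for Brdt, at -2.02, for Sohlh2, at 1.73, and for each other gene shown.

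**Figure D3:**
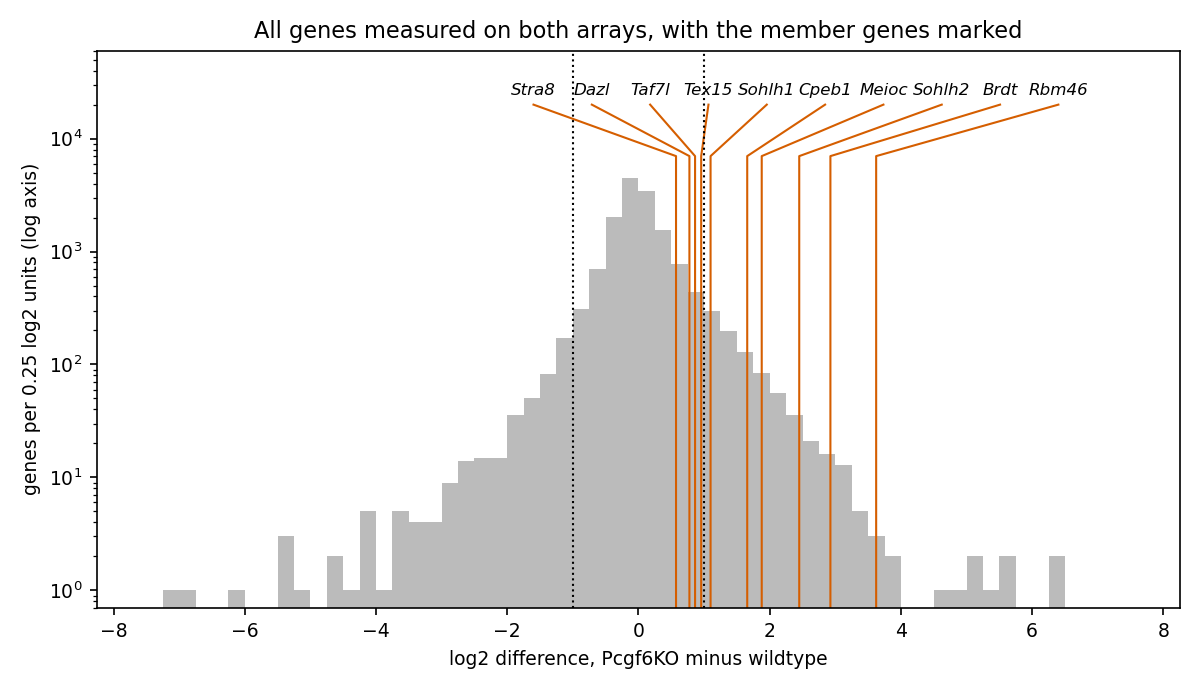
Histogram of the log2 difference, Pcgf6KO minus wildtype, over the 14997 genes measured on both arrays, with the number of genes on a log axis and dotted lines at 2-fold. Lines mark the members, which run from 0.57 for Stra8 to 3.62 for Rbm46.

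Structural and effector genes of the germline were read from 3 lists that share no gene with the members. Of the 42 with a measurement in both samples, 15 passed 2-fold upward in Pcgf6KO and 2 downward, against 5.81% and 2.81% of all genes. Another 4 were higher as bounds. The same shares apply to each list below in this comparison. Their median difference was 0.67. The 3 lists were uneven. Of piRNA and Tudor-domain genes, which silence transposons, 7 of 13 were higher and 0 lower, with a median of 1.84. Examples were Tdrkh, which tethers Piwi proteins to mitochondria, with 3.87, the chaperone gene Fkbp6 with 2.68, Mov10l1 with 2.28 and Henmt1, which methylates piRNA ends, with 2.20.

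Of synaptonemal complex and meiotic cohesin genes, 5 of 12 were at least 2-fold higher and 0 lower, with a median of 0.80. Hormad2, which monitors chromosome synapsis, was higher by 2.88. The central element genes Tex12, Syce3 and Syce1 were higher by 2.45, 1.96 and 1.57. Sycp2, of the axial element, did not reach the background mark in wildtype, so Pcgf6KO was higher for it by at least 3.31-fold. Of meiotic recombination genes 3 of 17 were higher and 2 lower, with a median of 0.24. Tex11, Mei1 and Iho1, which act in crossing over or in the formation of DNA breaks, were higher by 3.35, 3.12 and 2.66. Spo11, which makes those breaks, was at least 2.59-fold higher. The lower genes were Hsf2bp and Meiob, which act on the strands at breaks, with -2.41 and -1.81.

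Side by side, the median differences in Pcgf6KO were 1.38 for the members, 1.84 for piRNA genes, 0.80 for the synaptonemal complex and 0.24 for recombination, against -0.02 over all genes. Within the members the 2 meiotic entry regulators Rbm46 and Meioc were among the higher genes, while Stra8 and Dazl lay at 0.57 and 0.78. Whether the members differ from the structural lists was not tested.

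Genes around the members in the same pathway were less uniform. Of 19 measured genes of the retinoic acid and meiotic entry pathway, 3 were at least 2-fold higher in Pcgf6KO and 1 was lower, with a median of 0.14. The higher genes were Cyp26a1, which degrades retinoic acid, with 1.34, the retinoic acid-binding protein gene Crabp1 with 1.14 and the synthesis enzyme gene Aldh1a2 with 1.01. The receptor gene Rxrg was lower by -1.16. Ythdc2, the partner of Meioc, differed by 0.39. Meiosin, which acts with Stra8 on DNA, is listed under an older symbol in the reference, and no probe matched to it. Of 21 germ cell fate and gonadal transcription factors 4 were higher and 0 lower, with a median of 0.42. They were the Dazl relative Boll with 2.61, the oocyte factors Figla with 2.24 and Nobox with 1.53, and Dmrtb1, which times the step from mitosis to meiosis, with 1.17.

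A list of 10 genes related to the members was read beside them, not all of which were measured. None of the 8 measured in both samples passed 2-fold in either direction, and their median was -0.11. The BET genes Brd2 and Brd3 differed by 0.23 and -0.32, where Brdt differed by 2.93. Taf7 differed by 0.23 and its paralog Taf7l by 0.86. Of the other Cpeb genes, Cpeb3 differed by -0.24 and Cpeb2, a dim probe not measured on the array labelled Pcgf6KO+ Pcgf6_flag, by 0.91. Cpeb4 did not reach the background mark in wildtype, and A1cf, a relative of Rbm46, on no array. Dazap1, whose protein binds Dazl, and Rbm47 differed by -0.21 and -0.01.

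**Figure D4:**
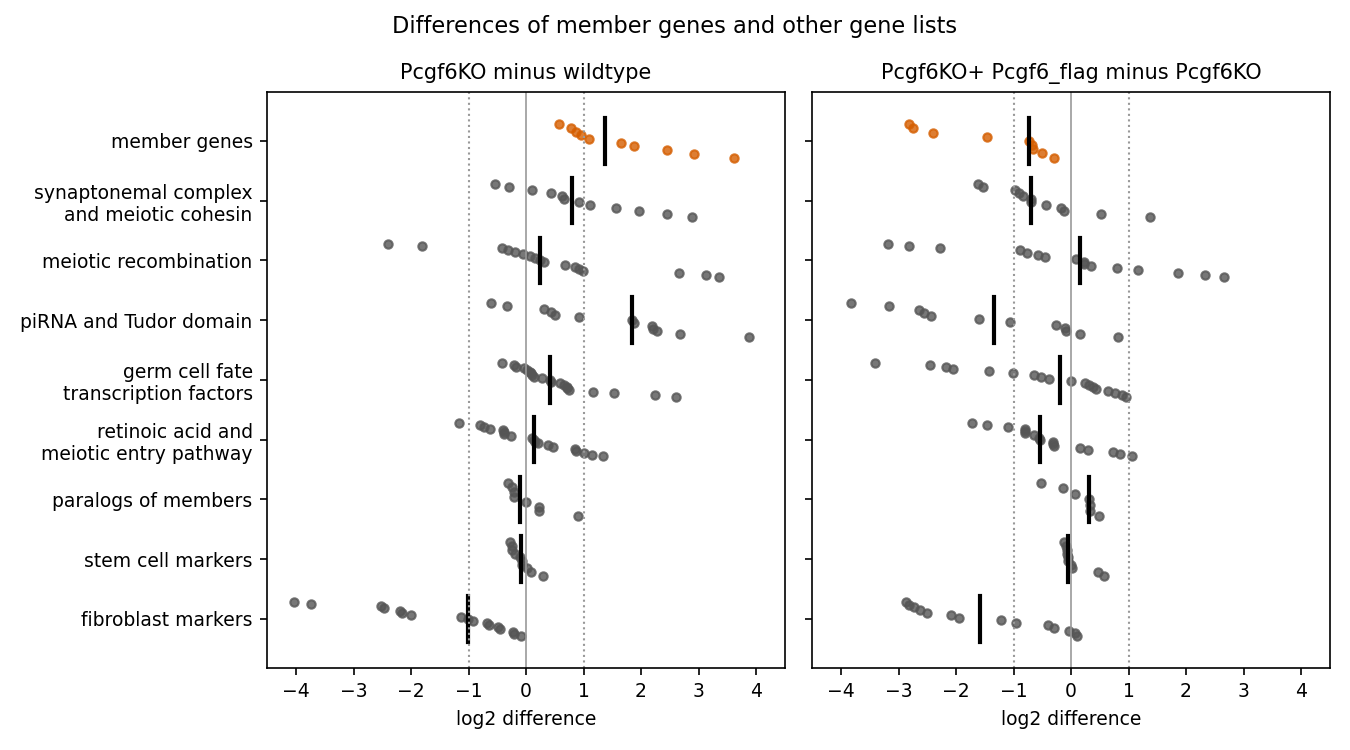
Log2 differences of the member genes and 8 other gene lists, for Pcgf6KO minus wildtype on the left and the array labelled Pcgf6KO+ Pcgf6_flag minus Pcgf6KO on the right. Each point is a gene measured on both arrays, bars are list medians and dotted lines mark 2-fold. The member median is 1.38 on the left and -0.74 on the right, and fibroblast markers have medians of -1.01 and -1.58.

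The second comparison set the array labelled Pcgf6KO+ Pcgf6_flag against Pcgf6KO. Of 9 members with a measurement on each, 4 passed 2-fold downward and 0 upward, against 8.37% and 5.40% of 14241 genes. Rbm46 was lower as a bound. The median over the 9 was -0.74, against 0.03 over all genes, and it was -1.10 with the Rbm46 bound included. The 2 comparisons share the Pcgf6KO array, so a high or low reading there moves both in opposite directions. They are given side by side, and neither is support for the other.

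On the array labelled Pcgf6KO+ Pcgf6_flag the Rbm46 signal was 83.1, short of the background mark, against 2149.7 in Pcgf6KO. It was at least 22.4-fold lower there. Its log2 bound of -4.49 was -3.42 with normexp background correction. Brdt had a level of -4.84 on the array labelled Pcgf6KO+ Pcgf6_flag, against -2.02 in Pcgf6KO, 7.04-fold lower. Its log2 difference of -2.82 was -2.03 with normexp correction, so the size for both genes depends on how background was removed. Cpeb1 had -1.84 on the array labelled Pcgf6KO+ Pcgf6_flag and 0.91 in Pcgf6KO, 6.75-fold lower. The 3 genes lay past the other members here, although with normexp correction Sohlh2, at -2.34, lay past Brdt.

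Sohlh2 had -0.67 on the array labelled Pcgf6KO+ Pcgf6_flag and 1.73 in Pcgf6KO, 5.27-fold lower. Meioc had 0.79 on the same array and 2.25 in Pcgf6KO, 2.75-fold lower, and its dimmer probe was 5.51-fold lower. The other 5 members differed by less than 2-fold. Stra8 had 0.02 on the array labelled Pcgf6KO+ Pcgf6_flag and 0.76 in Pcgf6KO, a difference of -0.74. Dazl had -1.56 on the array labelled Pcgf6KO+ Pcgf6_flag and -1.26 in Pcgf6KO, a difference of -0.30. Sohlh1 had -3.74 on that array and -3.07 in Pcgf6KO, and it differed by -0.67. These 3 genes were thus lower by less than 2-fold. Taf7l had 1.13 on the array labelled Pcgf6KO+ Pcgf6_flag and 1.80 in Pcgf6KO, also a difference of -0.67. Tex15 had -0.10 on that array and 0.40 in Pcgf6KO, a difference of -0.50. All of these values were below 0 under the 8 alternatives of scaling, background correction and probe choice, several of which move all members by the same amount.

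The other germline lists differed among themselves in this comparison, where 8.37% of all genes passed 2-fold downward and 5.40% upward. Over the 3 structural lists together, 12 of 40 genes passed 2-fold downward and 5 upward, with a median of -0.51. Of 12 piRNA and Tudor-domain genes, 7 passed 2-fold downward and 0 upward, and the median was -1.34. Of synaptonemal complex and cohesin genes 2 of 12 were lower, Syce1 and Hormad2, and 1 was higher, the cohesin gene Stag3 with 1.37. Their median was -0.69, with 10 of the 12 below 0. Recombination genes were mixed, with Tex11, Mei1 and Iho1 lower and 4 of 16 genes higher, and 1 more was lower as a bound. Their median was 0.15, but -0.18 with bounds included, so its sign depends on the genes counted. Of 18 germ cell fate factors 6 were lower and 0 higher, with 9 above and 9 below 0 and a median of -0.19. With bounds included the median was -0.39 for these factors, -1.21 for piRNA genes and -0.69 for synaptonemal complex genes, against -1.10 for the members. The higher recombination genes were Hsf2bp with 2.66, Msh4 with 2.33, Meiob with 1.87 and Msh5 with 1.17. Stag3, Msh4 and Msh5 were picked out after their values were seen. Fibroblast markers were lower as well, with 8 of 14 at least 2-fold lower and a median of -1.58, so in this comparison they had the same direction as the members. Their part in the result was not tested. The stem cell markers differed by -0.12 to 0.58.

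**Figure D5:**
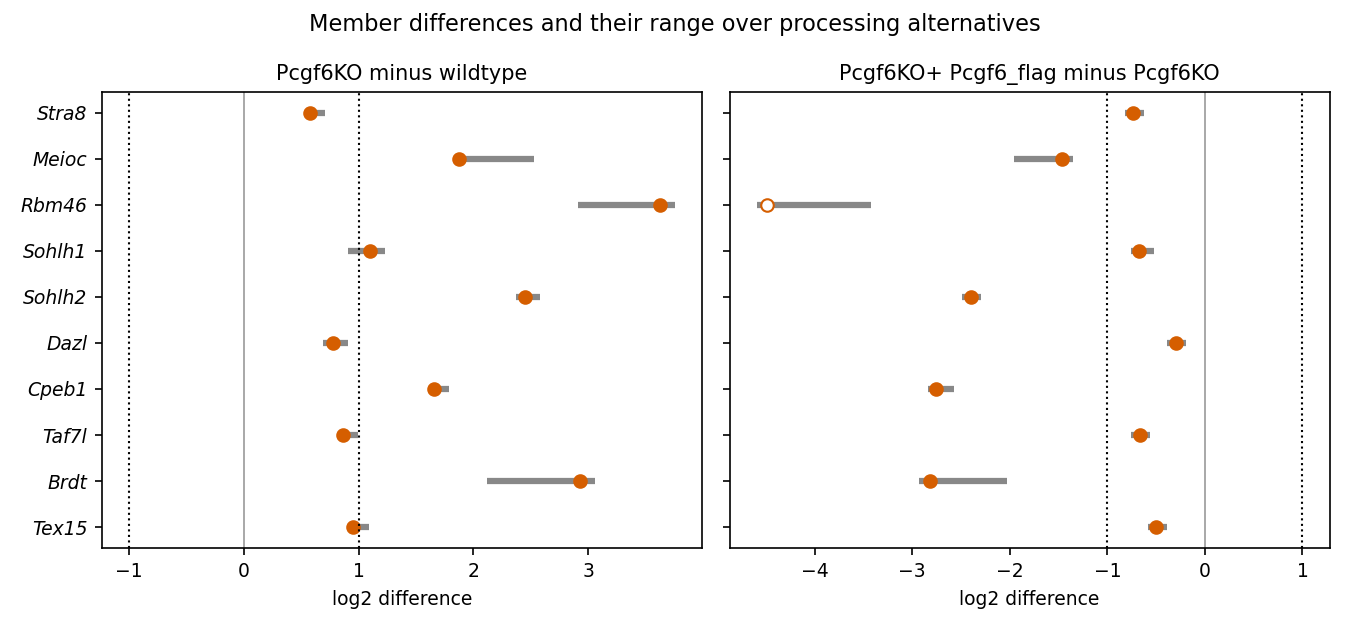
Log2 difference of each member for Pcgf6KO minus wildtype and for the array labelled Pcgf6KO+ Pcgf6_flag minus Pcgf6KO, as points, with grey bars for the range over 8 alternatives of scaling, background correction and probe choice. The open point is a bound for Rbm46, and dotted lines mark 2-fold. Sohlh1 and Tex15 are the members whose bar crosses 2-fold, both on the left, from 0.91 to 1.23 and from 0.92 to 1.09.

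Set directly against wildtype, the array labelled Pcgf6KO+ Pcgf6_flag had 1 of 9 measured members at least 2-fold lower and 0 higher, against 4.81% and 4.90% of 14193 genes. The median over the members was 0.19, against -0.02 over all genes. Cpeb1 was the lower gene, with -1.84 on the array labelled Pcgf6KO+ Pcgf6_flag and -0.74 in wildtype. Its difference of -1.10 was -0.94 with normexp correction and -0.86 without scaling, so it passed 2-fold only in part of the alternatives. Rbm46, below the background mark on the array labelled Pcgf6KO+ Pcgf6_flag, was at least 1.82-fold lower than in wildtype. Its log2 bound of -0.87 ran from -1.06 to -0.51 over the 8 alternatives, with -0.51 under normexp correction, so the bound depends on the processing. Over the 3 structural lists together, 7 of 40 genes were at least 2-fold higher and 0 lower, with 1 more lower as a bound. Their median was 0.19 as well. Fibroblast markers were lower in this comparison too, with 11 of 14 at least 2-fold lower, 5 more as bounds and a median of -3.12. The part of fibroblast content in the result was not tested.

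The remaining 8 members lay between -0.16 for Stra8 and 0.48 for Dazl. The differences of Sohlh2 with 0.05, Brdt with 0.11 and Stra8 with -0.16 changed sign under at least 1 scaling, and they were no larger than the spot error. Taf7l differed by 0.19. Meioc, Sohlh1, Dazl and Tex15 differed by 0.42, 0.43, 0.48 and 0.46. The 4 values exceeded the error of single spots and stayed under 2-fold.

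Brdt was taken for a search of similar patterns, because its difference between Pcgf6KO and wildtype was the largest among members measured on all 3 arrays. With normexp correction Sohlh2, at 2.37, lay above Brdt, at 2.12, so that choice depends on the background correction. Genes with the most similar pair of differences were sought among the 8024 genes whose signal reached the median, by Euclidean distance in log2 units over the 2 differences that the 3 arrays give. Among those 8024 genes the nearest was Sohlh2, itself a member, at 0.63, followed by the piRNA gene Mael at 0.78 and Hsf5 at 0.81. Stmn4 at 0.97 and Penk at 1.18 came next. Brdt itself lay below that median, and dimmer genes with a closer pair of differences were left out. Examples are Iho1, with 2.66 and -2.81, and Fkbp6, with 2.68 and -2.65, against 2.93 and -2.82 for Brdt. With 3 arrays this likeness is a description of these RNA samples.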

How the data were processed

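RNA was measured on 3 1-colour arrays, 1 per genotype label. Per the file headers, the authors' scanner output gives each spot's intensity, unlogged, from Agilent Feature Extraction 11.5.1.1, and the submitters' processing notes name version 10.7. The deposited processed intensity is background-subtracted. The deposited value table held the same intensities for 55249 of 55249 single-spot probes on each array, within a relative tolerance of 1e-06. The deposited flags mark spots well above background and outliers, and give no level.

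Control spots and 141 to 192 outlier spots per array were left out, spots of one probe were averaged, and log2 signal minus the array's 75th percentile was taken over 55681 probes. RefSeq annotation of GRCm38.p6 named 26762 probes and 20274 genes through their unversioned accessions. For each gene the brightest probe stood, if above background on at least 1 array. Where only 1 of a pair of arrays measured it, the bound used the larger of the probe's own signal and the smallest signal passing the background flag on the dim array.

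With 1 array per group no test was made. Members, lists, alternatives and the naming rule were chosen with earlier results of these data known. The rule named all members, Pcgf6, up to 4 list genes past 2-fold in each direction, all paralogs and 5 genes of similar pattern. Not all of these are named in the text. The 2-fold rule was also run on simulated data that held only the spread of repeated spots. Variation between cultures and slides was left out, so that run checked the code and not the calls. Python 3.11.15, numpy 2.4.6, pandas 2.3.3, matplotlib 3.10.9, R 4.3.3 and limma 3.58.1 were used. The number of arrays limits the precision.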

Additional observations from a re-analysis of the deposited data

How the results depend on the processing

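No paired analysis was possible because each group has 1 array, and slide as a block was not run for the same reason. Without scaling between arrays the median over all genes was 0.11 for Pcgf6KO minus wildtype, 0.13 for the array labelled Pcgf6KO+ Pcgf6_flag minus Pcgf6KO and 0.22 for that array minus wildtype, and the member medians were then 1.51 for the first and 0.43 for the third. Median scaling gave a member median of 0.070 for the third. Keeping dim probes gave -1.10 for the second, because Rbm46 then counts. Members at least 2-fold higher in the first were 6, with 5 under normexp and 7 without scaling as the extremes at that threshold. At 1.5-fold 9 members passed, and at 3-fold 5. Members lower in the second comparison were 4 at the 2-fold threshold and 7 at a 1.5-fold threshold. In the third they were 0 with normexp (offset 50), without scaling or at 3-fold, and 2 with dim probes kept. Other member counts and medians moved by at most 1.5 times or less than the spread of repeated spots. Over all genes, the 871 higher and 422 lower in Pcgf6KO than in wildtype were 1594 and 876 with dim probes kept, 1752 and 1129 at 1.5-fold, 319 and 145 at 3-fold, and 1079 and 310 without scaling. The 769 higher and 1192 lower of the second comparison were 1958 and 2201, 1804 and 2137, and 233 and 569 with dim probes kept, at 1.5-fold and at 3-fold. The 696 higher and 682 lower of the third were 1762 and 1509, 1551 and 1553, and 220 and 260 in the same order. Without scaling they were 1075 and 450, with median scaling 554 and 859, and the higher genes were 453 with normexp. Quantile normalization, scaling on probes well above background on all arrays, the deposited table, the mean over probes and outlier spots kept moved none of these member counts. Causes other than the number of genes tested or the threshold itself were not tested. Signal over background limits the dim probes of Rbm46, Brdt and Sohlh1.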
